A study of Caenorhabditis elegans with 2 samples.

Results

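The histone genes of Caenorhabditis elegans were examined in lists of regions bound by the forkhead transcription factor FKH-6, as measured by ChIP-seq (sequencing of immunoprecipitated chromatin). Histone genes were the nuclear protein-coding genes of the Ensembl annotation whose names begin with his- or hil-, which gave 80 of 19973 genes, 72 his- and 8 hil-. Genes lying within 5000 bp of one another were joined into loci, and a gene with no such neighbour was counted as a locus of 1. All samples were hermaphrodite whole late embryos of strain OP78, genotype unc-119(ed3) III with the transgene wgIs78, collected 5.5 hours after synchronization by bleaching of eggs. The transgene supplies FKH-6 with a GFP-FLAG tag at its C terminus, and an anti-GFP antibody was used for the precipitation. There was 1 group of 2 biological replicates, and a list of regions was used for each replicate, for the pooled replicates and for the reproducible set. The control libraries were not analysed here, so counts for histone genes are set beside counts over all genes and not beside an untagged strain. Signal comes from whole embryos, and fewer cells with a bound site and weaker binding per cell cannot be told apart.

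Core histones H2A, H2B, H3 and H4 form the spool of the nucleosome, and the linker histone H1 binds the DNA that enters and leaves it. Most core histone genes are expressed with DNA replication, occur in many near-identical copies, and lie as divergent pairs that share a promoter, H2A with H2B and H3 with H4. Replacement histones such as H3.3, which is deposited outside replication, are usually encoded by separate genes. FKH-6 is known for its role in the development of the somatic gonad.

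Shared promoters with a pooled region are shown first, beside a repeated promoter that had none. Sequences are from the RefSeq assembly WBcel235 (ce11) and run 5′ to 3′ on the strand named, from the first-named gene towards the second. Capitals mark the words GGGGACAC, CTCCGCC and TATAAA on either strand. The H4 and H3 pair his-31 and his-32 (chrIV:8333995-8334294, + strand) held the pooled summit of a reproducible region at base 149 of the printed stretch. The H4 and H3 pair his-60 and his-59 (chrIV:7487993-7488248, + strand) had the strongest pooled summit near a core histone gene outside the reproducible list, at base 131. The H2A and H2B pair his-3 and his-4 (chrV:16040516-16040807, − strand) had a weaker pooled summit at base 173. The H4 and H3 pair his-50 and his-49 (chrV:8847705-8847942, + strand) had no summit, and the identical letters stand between his-28 and his-27 (chrV:8889800-8890037, + strand).
his-31 to his-32: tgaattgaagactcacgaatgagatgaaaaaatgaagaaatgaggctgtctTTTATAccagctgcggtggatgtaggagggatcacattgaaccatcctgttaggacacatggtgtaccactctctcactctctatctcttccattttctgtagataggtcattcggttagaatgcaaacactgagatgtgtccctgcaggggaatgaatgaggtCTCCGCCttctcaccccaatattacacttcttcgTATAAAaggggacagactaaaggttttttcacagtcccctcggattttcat
his-60 to his-59: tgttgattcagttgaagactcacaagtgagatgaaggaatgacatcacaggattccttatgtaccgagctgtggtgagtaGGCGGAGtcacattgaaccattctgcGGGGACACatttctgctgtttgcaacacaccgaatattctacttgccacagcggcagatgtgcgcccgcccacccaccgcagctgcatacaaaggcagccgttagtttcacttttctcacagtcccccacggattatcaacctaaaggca
his-3 to his-4: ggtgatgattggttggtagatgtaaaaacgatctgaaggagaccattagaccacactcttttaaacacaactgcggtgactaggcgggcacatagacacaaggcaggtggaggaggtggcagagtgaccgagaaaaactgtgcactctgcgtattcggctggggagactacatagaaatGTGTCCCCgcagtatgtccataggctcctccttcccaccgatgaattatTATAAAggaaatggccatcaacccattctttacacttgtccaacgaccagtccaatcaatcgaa
his-50 to his-49: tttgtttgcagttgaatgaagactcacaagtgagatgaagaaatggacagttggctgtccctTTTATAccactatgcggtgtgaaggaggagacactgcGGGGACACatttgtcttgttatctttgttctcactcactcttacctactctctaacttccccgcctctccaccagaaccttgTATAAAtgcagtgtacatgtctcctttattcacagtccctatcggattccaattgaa

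Of the other 3 reproducible regions near histone genes, 1 lay between his-67 and his-68 and is not printed. The other 2 lay outside shared promoters, and their summits are shown with 75 bases on each side, + strand of WBcel235 (ce11), the summit being base 76. The region 359 bp upstream of the linker histone gene hil-7 was centred in chrIV:6645878-6646028. The region nearest to the H2A gene his-16 was centred in chrII:13817393-13817543, in the 3' untranslated part of the gene ZK131.11. Neither stretch held the 3 words that are in capitals above.
hil-7 summit: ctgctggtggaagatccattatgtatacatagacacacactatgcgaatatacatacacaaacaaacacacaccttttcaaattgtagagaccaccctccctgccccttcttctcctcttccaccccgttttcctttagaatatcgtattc
his-16 summit: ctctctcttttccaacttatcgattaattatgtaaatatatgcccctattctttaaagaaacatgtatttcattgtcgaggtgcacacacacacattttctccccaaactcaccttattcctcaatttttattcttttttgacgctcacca

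The words were counted in the 300 bases upstream of every protein-coding gene, on both strands, together with GAGAGA and GTAAACA, and none of these words contains another. GGGGACAC was chosen after these sequences were seen, as was CTCCGCC, and the histone promoters include identical copies, so the shares are descriptions. GGGGACAC was found upstream of 44 of 80 histone genes (55.0%) and of 104 of all 19973 genes (0.521%). By class it was upstream of 13 of 17 H2A, 12 of 16 H2B, 8 of 15 H3 and 10 of 16 H4 genes, of 1 of 9 H1 genes and of 0 of 5 H3.3 genes. CTCCGCC was likewise upstream of 55.0% of histone genes and of 4.74% of all genes, and TATAAA, the letters of a TATA box, of 70.0% and 39.6%. GAGAGA was upstream of 45.0% of histone genes and 21.6% of all genes. The forkhead core word GTAAACA was upstream of 0 of 80 histone genes and of 5.01% of all genes. Only this exact word was counted, and other forms of a forkhead site were not looked for. The hil-7 summit, 359 bp upstream, lies outside the 300 bases. The count thus does not show that forkhead sites are absent.

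The reproducible list held 4 regions near histone genes. At 500 bp from the annotated 5' end of the gene, 5 of 80 histone genes (6.25%) had a reproducible region, beside 2.09% of all protein-coding genes. These were the H4 and H2A genes his-67 and his-68, the H4 and H3 genes his-31 and his-32, and hil-7. The 5 genes come from 3 regions, because both genes of a shared promoter count the same one. At 2000 bp the count was 9 of 80 (11.2%), beside 4.13% of all genes, with his-16, his-15, his-33 and his-34 added. The counts leaned on replicate 2. Among its 767 strongest regions, replicate 1 alone reached 2 genes within 500 bp, his-67 and his-68, or 2 of 80, beside 1.89% of all genes, and 5 of 80 within 2000 bp, beside 3.97%. Replicate 2 alone reached 5 within 500 bp, hil-7, his-60, his-59, his-31 and his-32, or 5 of 80, beside 2.00%, and 11 of 80 within 2000 bp, beside 4.12%. The region between his-67 and his-68 was thus among the strongest in replicate 1 only, and those of hil-7 and of his-31 and his-32 in replicate 2 only. Counting only the nearest protein-coding start of each region left 4 genes within 2000 bp, and no gene had a region in the upper part of the reproducible list, split at its median signal. The 5' end is the first base of the start codon for 65 of the 80 genes, because most are annotated as coding sequence from end to end, so distances are from the start codon for most of them.

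The region with the highest signal was not at a histone promoter. Signal is the deposited score of a region, ranks regions within 1 list, and ran from 89.1 to 1722 in the reproducible list with a median of 116. The his-16 region had a pooled signal of 115, rank 394 of 26164 pooled regions, with 45.8 in replicate 1 (rank 605) and 63.9 in replicate 2 (rank 433). Its summit lay 675 bp downstream of the 5' end of his-16 and 903 bp upstream of that of the H2B gene his-15, beyond the 3' end of his-16 and so at the edge of the 13-gene chromosome II locus, and the start of the ncRNA gene ZK131.14 was nearer, at 525 bp. The region between his-31 and his-32 had a pooled signal of 101, rank 559, with 41.0 in replicate 1 (rank 916) and 56.3 in replicate 2 (rank 611). Its summit was almost midway, 160 bp upstream of his-31 and 162 bp upstream of his-32, and no other gene started within 500 bp of it.

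The hil-7 region had a pooled signal of 96.1, rank 630, with 30.7 in replicate 1 (rank 2655) and 66.8 in replicate 2 (rank 391). hil-7 encodes an H1-like protein of 66 residues, and the summit lay 85 bp inside the ncRNA gene C01B10.45, nearer to that start than to hil-7. The region between his-67 and his-68 had a pooled signal of 95.8, rank 635, with 52.8 in replicate 1 (rank 400) and 40.9 in replicate 2 (rank 1670). This H4 and H2A pair is the only shared promoter among the histone genes that joins those classes, and its summit lay 137 bp upstream of his-67. Of the regions at histone starts, the his-67 and his-68 region stood higher in replicate 1, and the his-31 and hil-7 regions stood higher in replicate 2.

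The next region fell just below the end of the reproducible list. The summit between his-60 and his-59 had a pooled signal of 88.8, rank 775, just under the 89.1 at which the reproducible list ends. Its signal was 69.2 in replicate 2, rank 367, and 18.0 in replicate 1, rank 14839. Of the pooled regions near histone genes it ranked highest in replicate 2, while in replicate 1 it stood in the lower part of 19624 regions.

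The pooled list, which is permissive and holds background for the reproducibility step, had a region within 500 bp of 31 of 80 histone genes (38.8%), beside 29.6% of all genes. At 2000 bp the count was 49 of 80 (61.2%), beside 61.0% of all genes. In replicate 1 the counts were 21 of 80 (26.2%) at 500 bp, beside 23.9%, and 41 of 80 (51.2%) at 2000 bp, beside 54.3%. In replicate 2 they were 28 of 80 (35.0%), beside 29.3%, and 45 of 80 (56.2%), beside 61.6%. Over all 80 genes, the share at 2000 bp was thus close to the background in the pooled list and in each replicate. The small gaps in the replicates were not tested.

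The genes behind those shares fell into separate groups by how far their sequence repeats. A position was called unique when the 36-base word starting there occurs once in the genome on either strand, and each gene was given the percentage of unique positions within 500 bp of its 5' end. The median was 28.0% for histone genes and 100% for all protein-coding genes. Under 50% were 44 of 80 histone genes, beside 544 of all genes (2.72%). Of the 36 histone genes at 50% or more, 27 had a pooled region within 500 bp (75.0%), beside 30.4% of the 19429 genes of the genome at 50% or more. Of the 44 histone genes under 50%, 4 had one (9.09%), beside 3.31% of the 544 genes under 50%. Both genes of a shared promoter can count the same region, which most genes of the genome cannot. Among divergent pairs 50% or more unique between their starts, 10 of 11 histone pairs had a pooled region, beside 51.8% of all 1681. The part of such pairing in the gene shares was not tested.

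**Figure D1:**
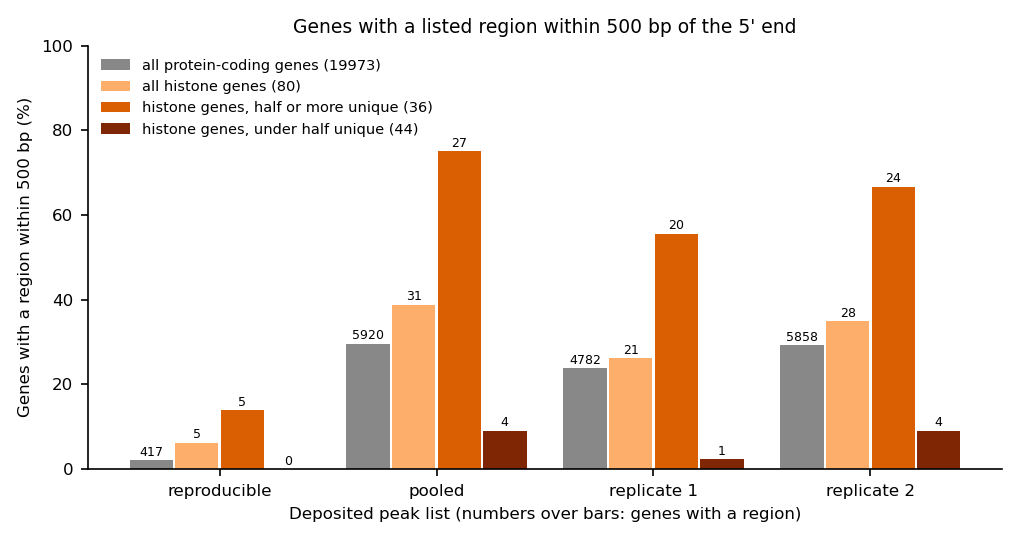
Percentage of genes with a region within 500 bp of the 5' end in each of the 4 deposited lists, for all protein-coding genes, all histone genes, and histone genes split at 50% unique start windows; numbers over bars are genes. Histone genes at 50% or more had a pooled region in 27 of 36 cases, and those under 50% in 4 of 44. Both genes of a shared promoter can count the same region.

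The split was present in every list. Among the 36 histone genes at 50% or more, the reproducible list had a region at 5 (13.9%), beside 2.14% of all genes of that kind. Replicate 1 had a region at 20 (55.6%), beside 24.6%, and replicate 2 at 24 (66.7%), beside 30.1%. Among the 44 genes under 50%, the reproducible list had 0, beside 0.184% of all 544 genes of that kind. Replicate 1 had 1 (2.27%), beside 2.21%, and replicate 2 had 4 (9.09%), beside 3.31%. With 50-base words in place of 36, the pooled count was 28 of 37 genes (75.7%), beside 30.3%.

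Where almost nothing was unique, no gene of any kind had a pooled region. Under 10% unique, 0 of 37 histone genes and 0 of 235 other protein-coding genes had one within 500 bp. From 10% to under 50%, 4 of 7 histone genes had one (his-6, his-7, his-8 and his-63), beside 14 of 265 others (5.28%). From 50% to under 90% the counts were 13 of 18 histone genes (72.2%) and 326 of 1624 others (20.1%). At 90% or more they were 14 of 18 (77.8%) and 5549 of 17769 (31.2%). The treatment of reads that match several places is not given in the labels or files used, and its part in the missing regions was not tested. The lack of a region at a repeated copy is thus a fact about the lists and no measure of binding there.

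**Figure D2:**
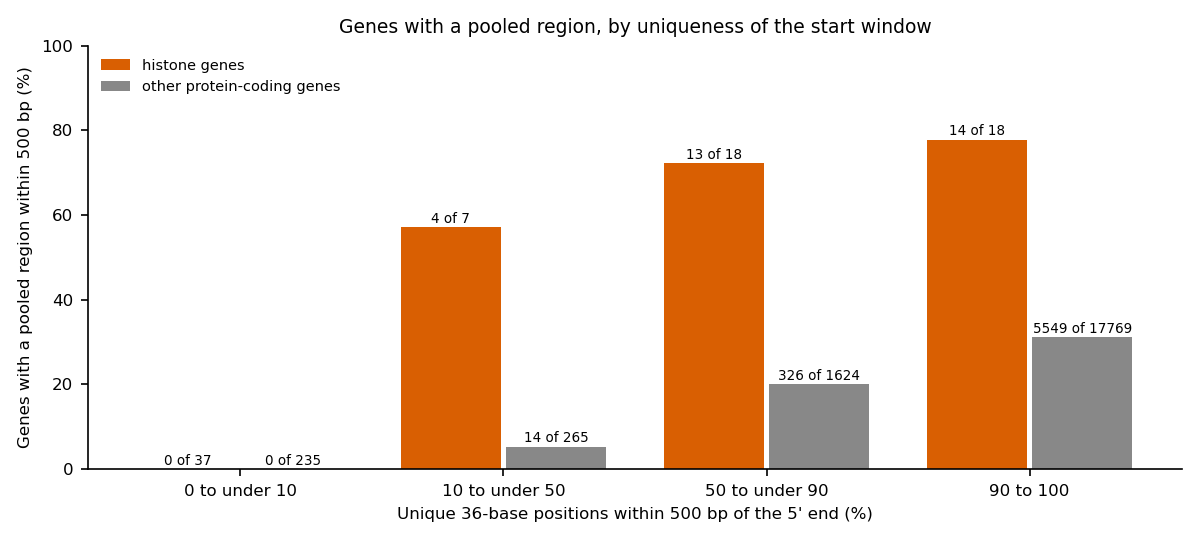
Percentage of genes with a pooled region within 500 bp of the 5' end, by the percentage of unique 36-base positions in that window, for histone genes and for all other protein-coding genes; labels give genes with a region of genes in the bin. Both sets have 0 in the lowest bin, with 0 of 37 and 0 of 235 genes.

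**Figure D3:**
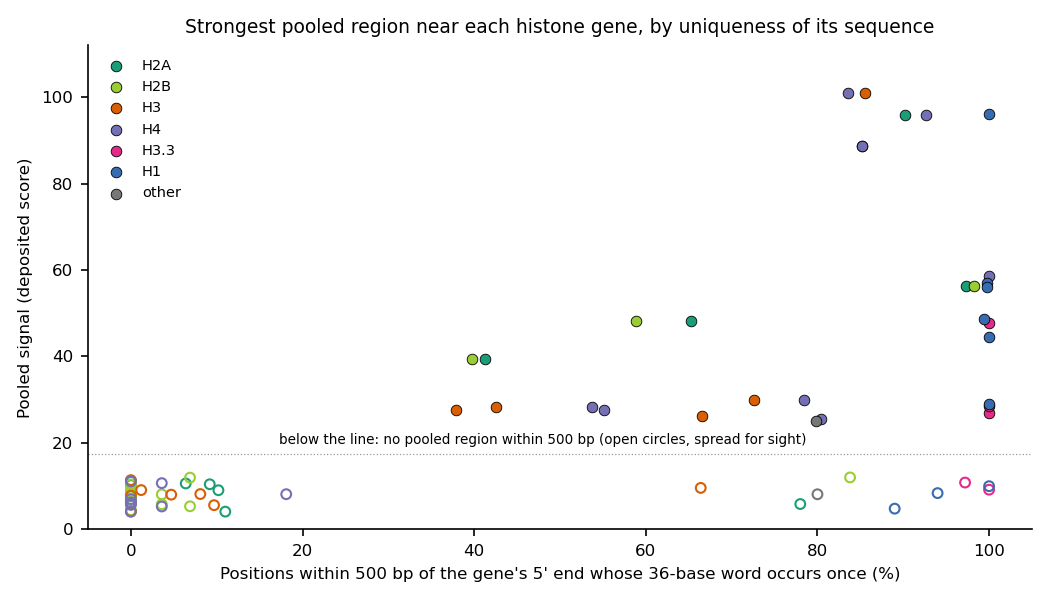
Deposited signal of the strongest pooled region within 500 bp of each histone gene against the percentage of unique positions in that window, coloured by histone class; open circles under the dotted line are genes with no such region. The genes with signal above 80 lie at 83.6% unique or more, and the genes at 0% are all without a region.

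Repetition of the gene itself overlapped with the division by unique positions. The 80 genes encode 25 distinct proteins through 58 distinct coding sequences, taking the longest annotated coding sequence of each gene. Of the 36 genes whose coding sequence is identical to that of another histone gene, 0 had a pooled region within 500 bp, beside 29.6% of all genes. Of 25 genes with a coding sequence of their own but a protein that another gene also encodes, 19 had one (76.0%). Of the 19 genes that alone encode their protein, 12 had one (63.2%). Over the 61 genes with a shared protein the count was 19 (31.1%), near the 29.6% of all genes. That share was 32.0 percentage points below that of the genes with a protein of their own. With only regions of a −log10 q-value of at least 2 the difference changed sign, to 4.57 percentage points with 7 genes left. In the full pooled list the lower share lay in the identical copies, since repeated proteins with a distinct coding sequence had a share no lower than that of single genes.

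The H4 genes show the contrast within 1 protein. All 16 H4 genes encode the same protein, and 8 had a pooled region within 500 bp. The counts of the other core classes were 6 of 15 for H3 (40.0%), 4 of 17 for H2A (23.5%) and 3 of 16 for H2B (18.8%), beside 29.6% of all genes. The median start window was 35.9% unique for H4, 9.69% for H3, 6.39% for H2A and 1.80% for H2B. Histone class and repetition therefore cannot be told apart in these counts. The H4 genes with regions were his-67 with a signal of 95.8, his-31 with 101, his-60 with 88.8, his-37 with 58.7, his-38 with 30.0, his-5 with 28.2, his-64 with 27.5 and his-1 with 25.5. Each has its own coding sequence, and their start windows were 53.7% to 100% unique. his-37, an H4 gene outside any shared promoter, had its summit 58 bp upstream of its start, with 34.6 in replicate 1 and 26.6 in replicate 2.

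Replacement and linker histone genes, which stand mostly alone, had pooled regions of signal 26.8 to 57.0 within 500 bp, apart from hil-7 with 96.1. Of 5 H3.3 genes, 3 had a pooled region within 500 bp, and of 9 H1 genes, 6 had one, beside 29.6% of all genes and 31.2% of other genes at 90% or more unique. his-72, an H3.3 gene, had a region of signal 26.8 at 195 bp downstream of its 5' end. A stronger one of 49.0 lay 548 bp downstream, in an intron. That summit was inside the snoRNA gene Y49E10.36, whose start was nearer, at 42 bp. his-71, which encodes H3.3 as well, had signal 28.4 at 272 bp upstream and 71.5 at 603 bp upstream. The upstream his-71 region at 603 bp was 46.3 in replicate 1, rank 578, and 22.3 in replicate 2, rank 11117. his-74, the third H3.3 gene with a region, had signal 47.7 at 249 bp downstream, inside its coding exon. That summit was matched in replicate 1, at 24.3, and not in replicate 2. The neighbouring H3.3-like genes his-69 and his-70 had their nearest pooled summits 725 bp and 1058 bp away.

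Among the linker histone genes, hil-5 had pooled signal 57.0 at 255 bp upstream, with 28.9 in replicate 1 and 27.3 in replicate 2. hil-2 had 56.0 at 242 bp downstream, in its coding exon, with 41.3 in replicate 2 and no matching summit in replicate 1, and the start of the miRNA gene mir-8201 was nearer to that summit, at 97 bp. hil-4 had 48.7 at 45 bp upstream, with 19.9 in replicate 1 and 26.3 in replicate 2. The hil-5 and hil-4 summits were thus matched in both replicates, and the hil-2 summit in 1. hil-3 had 44.5 at 99 bp upstream, matched in replicate 1 by a summit of signal 35.8 and not matched in replicate 2. It also had 41.5 at 104 bp downstream, in its coding exon, matched only in replicate 2, at 25.8. his-24, an H1 gene, had 29.0 at 36 bp downstream with no matching summit in either replicate. That summit lay inside the ncRNA gene M163.19, whose start was nearer, at 18 bp. A region of 72.9 lay 1314 bp downstream of the his-24 start, with 37.5 in replicate 1 and 36.5 in replicate 2. This region lay past the 3' end of his-24, and the start of the ncRNA gene M163.16 was nearer, at 860 bp.

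Some single genes with unique sequence had no region. hil-1 and hil-8 had no row of any list within 2000 bp of their starts, although 94.0% and 100% of their start windows were unique. The nearest pooled summit was 12623 bp from the start of hil-1 and 4670 bp from that of hil-8. hil-6 had none within 500 bp, its nearest lying at 1462 bp and closer to the start of another gene, F59A7.12. The remaining genes with a protein of their own were the H2A genes his-35 and his-57, the H2B gene his-41, and his-39 and his-73, which encode proteins of 67 and 46 residues. his-35 and his-41 share a promoter, and the pooled summit of signal 56.4 lay 70 bp into the coding exon of his-41, with 30.9 in replicate 1 and 30.5 in replicate 2. his-39 had signal 25.1 at 67 bp upstream, near the lowest value in the pooled list, 25.0. his-57 and his-73 had no pooled summit within 500 bp. his-57 was counted as a single gene by its longest annotated coding sequence, of 147 residues. Its start window was 6.39% unique, and the promoter it shares with his-58 occurs 3 times in the genome.

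The 80 genes formed 27 loci, 13 of them of 1 gene, 4 of 2 or 3 genes, and 10 of 4 or more genes that hold 58 of the genes. A reproducible region was found within 2000 bp of a start in 4 loci, of which 2 had 4 or more genes. A pooled region was found within 2000 bp in 22 loci, and in 7 of the 10 large ones. Single protein-coding starts had a pooled region within 2000 bp in 61.0% of cases and a reproducible one in 4.13%. A locus of several starts covers more sequence than 1 start, so the locus counts are descriptions. Counted by gene, 15 of 58 genes in large loci had a pooled region within 500 bp (25.9%), as did 16 of 22 genes in smaller loci (72.7%), beside 29.6% of all genes. The share in large loci was thus near the background.

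**Figure D4:**
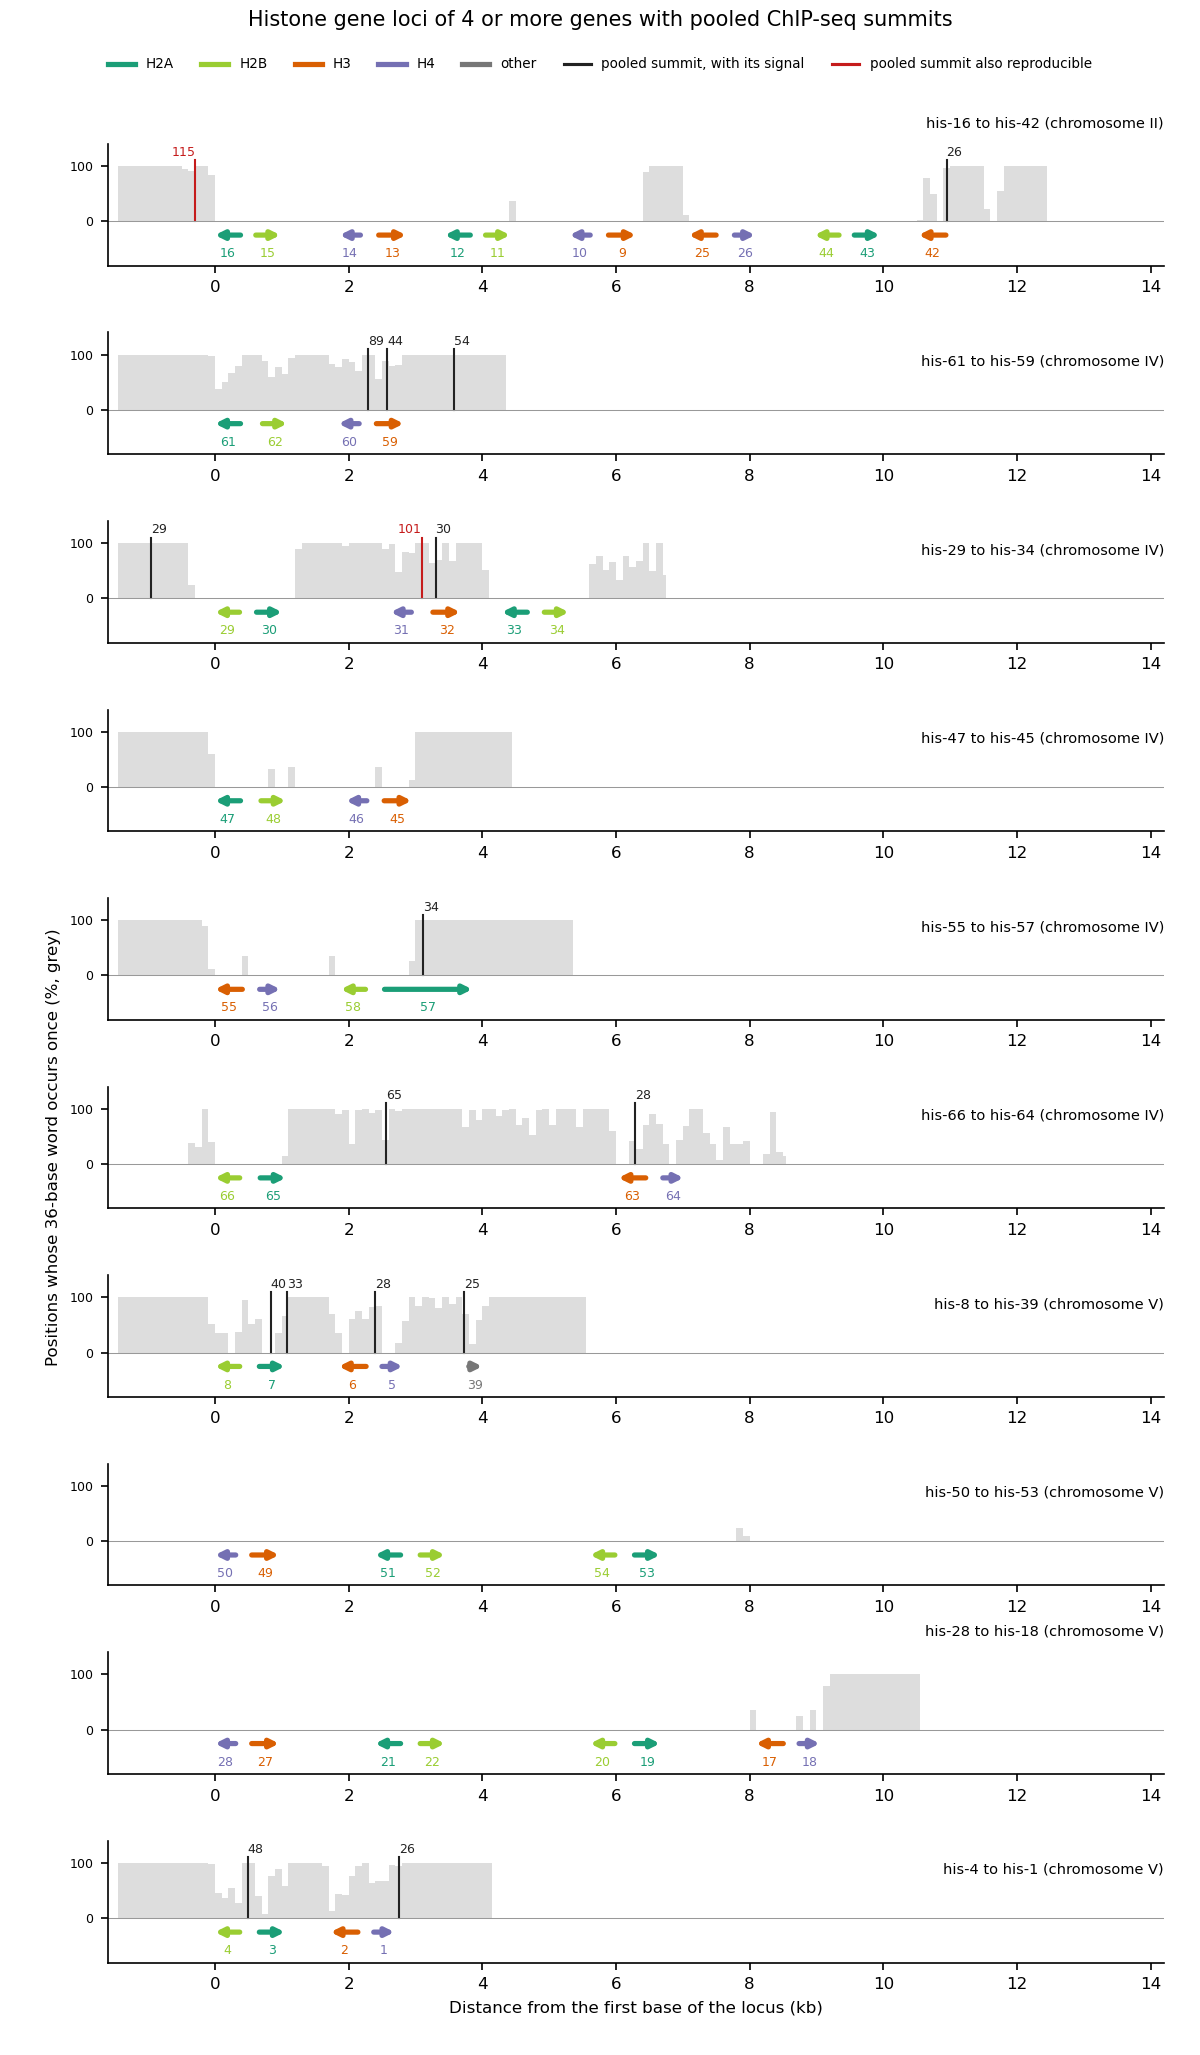
Maps of the 10 loci of 4 or more histone genes, with distance in kb from the first base of each locus, gene arrows coloured by class and numbered by his- name, pooled summits as vertical lines with their signal, and the percentage of unique positions in 100-bp bins in grey. Summits stand in or beside the grey stretches, and the loci of his-50 to his-53 and his-28 to his-18 on chromosome V have neither unique sequence over most of their length nor a pooled summit.

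The chromosome II locus, his-16 to his-42, has 13 genes and was 7.34% unique over its 10938 bp. No summit of any list lay inside it: 1 pooled summit, the reproducible one near his-16, flanked one end, and 1 of signal 26.1 flanked the other, 9 bp upstream of the H3 gene his-42. The interval between those pooled summits was 11238 bp, against a median of 2027 bp between neighbouring nuclear pooled summits, and 6.52% of intervals were as long. Within it, the his-16 and his-15 pair and the his-12 and his-11 pair share 1043 identical bp.

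The chromosome V loci of his-50 to his-53 and of his-28 to his-18 contain the longest repeat. The stretch chrV:8840017-8855303 is identical over 15287 bp to chrV:8882112-8897398, and each copy carries 6 histone genes. Neither copy held a summit in any of the 4 lists. Both copies lie in an interval of 110739 bp between neighbouring pooled summits, the 3rd longest of 26135 in the nuclear genome, which holds 14 histone genes among 31 protein-coding starts. Of its positions 21.8% were unique, and to the right of the histone genes 99.7% were, so the absence of pooled summits reached beyond the repeat. Replicate 1 had 1 summit in that interval and replicate 2 had 3.

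The chromosome IV loci differed among themselves. The locus of his-61, his-62, his-60 and his-59 was 83.4% unique and had 3 pooled regions within 2000 bp, of signals 88.8, 53.7 and 44.1, all on the his-60 and his-59 side. The locus of his-29 to his-34 was 49.8% unique, and its pooled summits of 101 and 29.6 stood in the unique middle with his-31 and his-32, between H2A and H2B pairs of identical promoter, and a 3rd pooled summit stood outside the first gene, his-29. The locus of his-47 to his-45 was 3.57% unique and had no region of any list within 2000 bp. The locus of his-55 to his-57 was 24.6% unique and had 1 pooled region, of signal 34.4, within the annotated his-57 gene. The locus of his-66 to his-64 was 69.7% unique and had pooled regions of 64.8, nearer to the gene memi-3, and 27.5, inside his-63.

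On chromosome V, the locus of his-8 to his-39 was 61.4% unique with 4 pooled regions of signals 25.1 to 39.5. The locus of his-4 to his-1 was 70.1% unique with pooled regions of 48.3 in the his-3 and his-4 promoter and 25.5 downstream of the start of his-1. The his-3 and his-4 summit was matched in both replicates, at 24.7 in replicate 1 and 25.5 in replicate 2. Against the pooled median of 35.0, the 48.3 and 39.5 regions were higher, and those of 32.8, 28.2, 25.5 and 25.1 were lower.

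The histone genes formed 31 shared promoters, 16 of H2A with H2B, 14 of H3 with H4 and the his-67 and his-68 promoter of H4 with H2A. They were 227 to 368 bp long, with a median of 258 bp, and comprised 21 distinct sequences. A pooled region lay within 500 bp of a start in 10 of 31, beside 50.0% of 1745 divergent pairs of protein-coding genes at most 1000 bp apart. A reproducible region lay there in 2 of 31, beside 6.48% of all such pairs. By kind, the pooled count was 6 of 14 for H3 with H4, 3 of 16 for H2A with H2B and 1 of 1 for H4 with H2A.

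All shared promoters with a pooled region occur once in the genome, but some that occur once had none. Of 14 promoter sequences that occur once in the genome, 10 had a pooled region, 8 had one in replicate 1 and 10 in replicate 2. Of 17 promoters with 2 or more exact copies, which comprise 7 distinct sequences and were 0% unique, none had a region in any of the 4 lists. Among the 11 promoters that were 50% or more unique, 10 had a pooled region (90.9%), beside 51.8% of the 1681 divergent pairs of that kind. The exception was his-61 and his-62, an H2A and H2B promoter that was 100% unique, where replicate 1 alone had a summit, of signal 17.4.

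**Figure D5:**
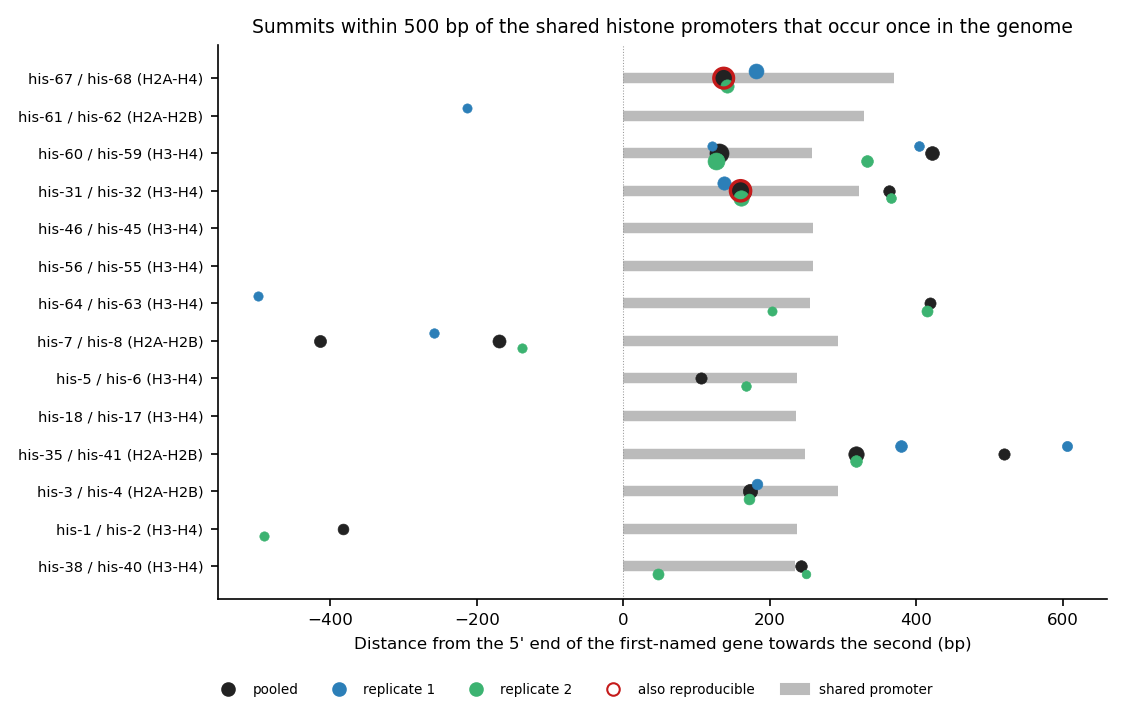
Summits within 500 bp of either start for the 14 shared histone promoters that occur once in the genome, by distance in bp from the 5' end of the first-named gene; grey bars span the promoter, circle area grows with the deposited signal and red rings mark reproducible regions. Pooled summits fall between the starts in 5 promoters, including the reproducible ones of his-67 and his-68 and of his-31 and his-32.

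The summit stood between the starts in 5 of the 10 promoters with a pooled region. These were the promoters of his-67 and his-68, his-60 and his-59, his-31 and his-32, his-3 and his-4, and his-5 and his-6. In the other 5 the strongest lay downstream of a start, as at his-41, 70 bp from the start, at his-7, 170 bp from the start, and at his-1, 383 bp from the start. Promoters with a region could be near-copies of promoters without one. The his-7 and his-8 promoter shared 279 of 292 bases (95.5%) with the H2A and H2B promoter that occurs 4 times on chromosome V and had no region, and the his-3 and his-4 promoter shared 259 of 292 (88.7%) with it. The his-46 and his-45 promoter shared 257 of 258 bases with that of his-56 and his-55, and neither had a region.

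Over all histone genes, 59 distinct pooled regions lay within 2000 bp of a start, with signals of 25.1 to 115 and a median of 39.5. A summit within 100 bp was found in replicate 1 for 37, in replicate 2 for 42, in both for 26 and in neither for 6. Over all 26141 nuclear pooled regions the median was 35.0. Of these, 12654 were matched in replicate 1, 16142 in replicate 2, 6864 in both and 4209 in neither. Within 500 bp of a histone start there were 28 regions, with a median of 40.5, and within 500 bp of any protein-coding start there were 6239, with a median of 36.4. By annotation, 31 of the 59 summits were intergenic, 15 were in coding exons and 7 in introns. These annotation counts have no share over all pooled regions beside them and only describe the 59. With a −log10 q-value of at least 2 there were 5 of the 59, the reproducible ones and the his-60 and his-59 region, beside 1077 of the 26141.

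Genes that handle histones gave a reference of mostly unique sequence. The list held 17 genes for histone variants, the stem-loop binding protein, chaperones and exchange factors, and was chosen with earlier results of these data known. A pooled region lay within 500 bp of 12 of 17, beside 29.6% of all genes, and a reproducible region within 500 bp of 2 of 17, beside 2.09%. These were chaf-2, a subunit of the chromatin assembly factor CAF-1, with signal 218 at 235 bp upstream, and unc-85, an ASF1-type H3 and H4 chaperone, with signal 109.8 at 495 bp upstream. The H2A.Z gene htz-1 had a pooled signal of 40.7 at 384 bp downstream. The stem-loop binding protein gene cdl-1, whose product binds the 3' end of replication-dependent histone mRNA, had none within 500 bp and one of signal 59.4 at 524 bp upstream.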

How the data were processed

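FKH-6-GFP ChIP-seq regions came from 2 biological replicates of whole late embryos, 1 group. Per the deposited descriptions, the authors made 1 list from each replicate and 1 from both pooled, and filtered the last by irreproducible discovery rate (IDR) to give the reproducible list. The reproducible list held 767 regions, the pooled list 26164, replicate 1 19624 and replicate 2 26209. All 767 are in the pooled list, with signals of 89.1 or more. The pooled region of signal 88.8 ranked 775, so the reproducible list was nearly the top of the pooled list by signal. The aligner, peak caller, versions, IDR threshold and read length are not given in the sources used. Signal in the deposited lists is the authors' score, of unstated scale, used here to describe and rank regions of 1 list. The −log10 q-values are also deposited by the authors and set a stricter cutoff among the alternatives. With no read counts in the lists, depth is unknown.

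Lists on ce11 were used and lists on ce10 were not. The summit of a region was set against the 5' end of genes in Ensembl release 115 at 500 and 2000 bp. Ensembl gives 58 distinct names to the 80 genes, so symbols were taken from RefSeq by gene ID. Summits within 100 bp were matched between lists. A shared promoter is a divergent pair of histone genes with starts at most 1000 bp apart. Python 3.11.15, NumPy 2.4.6 and Matplotlib 3.10.9 were used. The lookups were tested on simulated data, where 200 of 200 planted starts among 2000 were recovered. Members and lists were chosen with earlier results of these data known. No test was run, because the study has 1 group, genes of a locus are not independent, and 2 replicates give no comparison of conditions. Genes named were those with a reproducible region within 2000 bp, the 10 with the highest pooled signal within 500 bp, every hil- gene, every gene with a protein of its own and every locus of 4 or more genes; his-38, his-5, his-64, his-1, his-3, his-4, his-6, his-7, his-8, his-63 and his-42 were named after their values were seen. Alternatives left out each replicate, changed distances, used the whole interval, and kept stronger regions.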

Additional observations from a re-analysis of the deposited data

How the results depend on the processing

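No paired analysis was possible because the study has 1 group. Reading each replicate alone gave 2 to 5 histone genes with a reproducible-strength region within 500 bp (5 as reported) and 5 to 11 within 2000 bp (9 as reported), where each replicate's list was kept to its 767 strongest regions. Counting a region only for the nearest protein-coding start gave 4 genes within 2000 bp. Keeping the upper part of each list by signal, split at its median, gave 0 genes at both distances for the reproducible list, 19 in place of 31 genes and 6 in place of 10 shared promoters for the pooled list, and 17 in place of 27 genes at 50% or more unique. Requiring a −log10 q-value of at least 2 left 7 of 31 genes, 3 of 10 shared promoters and 7 of 27 genes at 50% or more unique. Those 7 were 19.4% of the 36 histone genes at 50% or more, beside 2.89% of all 19429 genes of that kind. In the upper part by signal the share was 47.2%, beside 18.1%. The other stricter counts have no share over all genes beside them. The count of loci with a reproducible region kept within 1.5 times its value, 3 to 4, under all 6 alternatives.

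Repeated genes had a share of 31.1% and single genes one of 63.2%, beside 29.6% of all genes. The difference between repeated and single genes was −32.0 percentage points. It was −27.7 to −23.1 without a replicate, −44.5 by interval, −24.1 in the upper part by signal, −21.1 at 250 bp and −41.2 at 1000 bp. It was −70.5 when repeated meant identical coding sequence and −46.9 when it meant a locus of 4 or more. Under that q-value requirement it reversed, to 4.57, with 7 genes left; the cause was not tested. The split at 50% unique positions and its alternatives were chosen after the data were seen.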
